A study of Mus musculus with 6 samples.

Results

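The genes described here are those of fatty acid oxidation and of the peroxisome proliferator-activated receptors (PPARs), with typical PPAR targets. They are 35 genes chosen by symbol for their function, with earlier results of these data known. All were found among the 36706 genes of each deposited table. They fall into 10 steps: acyl-CoA synthetases, the carnitine shuttle, acyl-CoA dehydrogenases, the electron transfer flavoprotein, the enzymes that complete the mitochondrial cycle, auxiliary enzymes, peroxisomal enzymes, acyl-CoA thioesterases, the receptors, and targets outside the cycle. Messenger RNA was sequenced from cells grown out of wild-type mouse bone marrow with GM-CSF at 20 ng/mL, and the study asked what 4-octyl itaconate (4-OI), an ester of the metabolite itaconate that enters cells, changed in cells given interferon gamma (IFN-γ). All 6 libraries came from cells given IFN-γ, so no untreated cells are compared. In 3 of them the cells also received 4-OI. The labels give no dose, duration, strain, age or animal, and do not say whether replicates were separate cultures, so the spread behind each p-value may be only technical. The titles call the cells macrophages (BMDMs) and the cell type label dendritic cells.

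Fatty acids are joined to coenzyme A at membranes, pass the inner mitochondrial membrane as carnitine esters, and are then shortened by repeated rounds of dehydrogenation, hydration, a second dehydrogenation and thiolysis. Electrons from the dehydrogenases reach the respiratory chain through the electron transfer flavoprotein, while peroxisomes shorten very long and dicarboxylic chains. PPARs are nuclear receptors that bind DNA with a retinoid X receptor and are activated by fatty acids and their derivatives. PPARα and PPARδ drive oxidation genes in many tissues, and PPARγ is induced by GM-CSF in macrophages of the lung.

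Each library held 19656368 to 29244717 counts, at which 3 counts correspond to 0.103 to 0.153 CPM (counts scaled to the library's total). This floor covers counting error only. A first principal component with 79.5% of the variance separated the treatments. On the second (10.7%), IFN-γ replicate 1 stood at 32.1 and replicates 2 and 3 at -19.1 and -16.8, while 4-OI replicate 3 stood at -14.4 and replicates 1 and 2 at 12.4 and 5.84. IFN-γ replicate 1 also held the stromal transcripts Col1a1 and Col1a2 at 10.1 and 10.5 CPM, against at most 0.543 in the other libraries. Of the 3 tested stromal markers, Lepr and Pdgfrb fell (log2 fold changes -1.7 and -2.06) and Pdgfra did not pass. Lepr ranged over 119.8 to 155.5 CPM across the IFN-γ libraries, but only 38.8 to 43.7 CPM across those given 4-OI. Summed CPM of the 6 listed stromal markers ranged over 123.4 to 181.8 and 40.3 to 45.5, in the same order. The part of stromal transcripts in the results was not tested. Scaling mattered as well: CPM here are scaled by TMM factors, under which the median log2 fold change of all tested genes was -0.01, and with total counts alone it was -0.27. Of the markers of conventional dendritic cells, Itgax, Flt3 and Zbtb46 were detected in every library, Itgax at 477 to 571 CPM with IFN-γ and 204 to 221 with 4-OI, whereas Xcr1 stayed under 1 CPM and Cd209a at 0 to 0.119 CPM. Of the 8 tested markers in that list 5 fell and 1 rose, Clec9a (9.54 ± 0.980 to 35.6 ± 2.22 CPM), while Ccr7 did not pass (477.0 ± 63.7 and 576 ± 22.8 CPM). The macrophage markers Adgre1 and Cd68 stood at 848 to 923 and 490 to 550 CPM with IFN-γ and at 1327 to 1343 and 541.1 to 569.5 with 4-OI. In bulk RNA, fewer cells of a type and less RNA per cell cannot be told apart, which holds for every result here.

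Sequence upstream of 4 members is shown because their transcripts took different courses below: Cpt1a, Acadvl and Pdk4 were higher with 4-OI and Hadhb was lower. Each line gives the 250 bases before the transcription start in RefSeq (GRCm38.p6), 5′ to 3′ on the gene's strand. For Cpt1a the start used by that promoter table, 3323301, lies 975 bases inside the gene's outermost RefSeq start at 3322326; for the other 3 genes it is the outermost start. Capitals mark AGGTCA on either strand, the hexamer that nuclear receptors such as PPARs bind as a pair of copies.
Cpt1a, chr19:3323051-3323300, plus strand: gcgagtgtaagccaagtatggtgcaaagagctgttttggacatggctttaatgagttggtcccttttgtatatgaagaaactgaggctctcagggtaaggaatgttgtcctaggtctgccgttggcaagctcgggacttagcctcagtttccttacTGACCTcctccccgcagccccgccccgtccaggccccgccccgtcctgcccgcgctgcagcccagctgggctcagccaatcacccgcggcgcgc
Acadvl, chr11:70015429-70015678, minus strand: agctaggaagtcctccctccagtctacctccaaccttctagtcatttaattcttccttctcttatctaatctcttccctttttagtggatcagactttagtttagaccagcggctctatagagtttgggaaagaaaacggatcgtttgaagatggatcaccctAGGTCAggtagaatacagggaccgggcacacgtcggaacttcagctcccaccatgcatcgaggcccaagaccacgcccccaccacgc
Pdk4, chr6:5496279-5496528, minus strand: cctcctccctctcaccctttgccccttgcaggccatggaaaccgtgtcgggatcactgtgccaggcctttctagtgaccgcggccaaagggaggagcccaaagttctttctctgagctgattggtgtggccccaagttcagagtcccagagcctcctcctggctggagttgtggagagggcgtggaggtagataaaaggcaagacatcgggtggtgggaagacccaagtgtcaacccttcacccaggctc
Hadhb, chr5:30155003-30155252, plus strand: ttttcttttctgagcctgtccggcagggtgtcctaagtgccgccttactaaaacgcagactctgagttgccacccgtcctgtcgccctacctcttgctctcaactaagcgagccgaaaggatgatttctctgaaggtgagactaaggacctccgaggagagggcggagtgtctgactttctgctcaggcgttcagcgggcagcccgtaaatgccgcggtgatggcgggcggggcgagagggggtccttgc
Promoter windows of 300 bases, from 250 before to 50 after the start, were at hand for 29 of the 35 members (32 windows); Crat, Acaa2, Decr1, Angptl4, Cyp4a12a and Cyp4a12b had none. The exact letters of the paired PPAR site DR1, in which 2 copies of AGGTCA follow each other with 1 base of any kind between, were in 0 of the 32 windows and in 13 of 32851 windows of all genes (0.0396%). AGGTCA alone, which such a site also holds, was in 5 windows of 4 members, Cpt1a, Acadvl, Acadm and Pparg (2 windows), and in 16.3% of all windows. Cpt1a and Acadvl were higher with 4-OI, but Pparg was lower and Acadm did not pass. The core of the antioxidant response element, TGACNNNGC, at which NRF2 binds, was in single windows of Ehhadh, Ucp2, Ppard and Pparg, and in 12.4% of all. All motifs were searched on both strands, and a match is a description of letters only.

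Of the 35 members, 34 passed the filter on low counts, and 22 of these passed an adjusted p of 0.05 (edgeR's quasi-likelihood test with Benjamini-Hochberg adjustment over all genes): 18 were higher with 4-OI and 4 were lower. Among all 14011 genes tested 48.1% passed, 22.7% as higher and 25.4% as lower. Counts by step and by marker list are to be read beside these shares. Called changes of 2-fold or more numbered 10 upward, against 6.38% of all genes, and 1 downward, against 11.1%. The groups' CPM did not overlap for 25 of the 34 members and for 59.5% of all genes. The median log2 fold change of the 34 was 0.39. As the members were chosen with earlier results of these data known, their shares beside all genes are a description and no test. Pdk4 and Cyp4a12b reached the filter through the 4-OI libraries, so they were bound to differ. Both are counted among the 18 higher and the 10 upward. With total counts alone, 13 members were higher and 8 lower. Without both libraries that stood apart, IFN-γ replicate 1 and 4-OI replicate 3, 20 were higher and 8 lower. Calls rose over all genes in that fit as well, to 4601 higher and 4695 lower of 14086 tested. With all libraries they were 3181 and 3555 of 14011. Both libraries were picked for lying apart in these same data, so leaving them out narrows the spread within groups. Calls added in that fit are therefore no support.

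**Figure D1:**
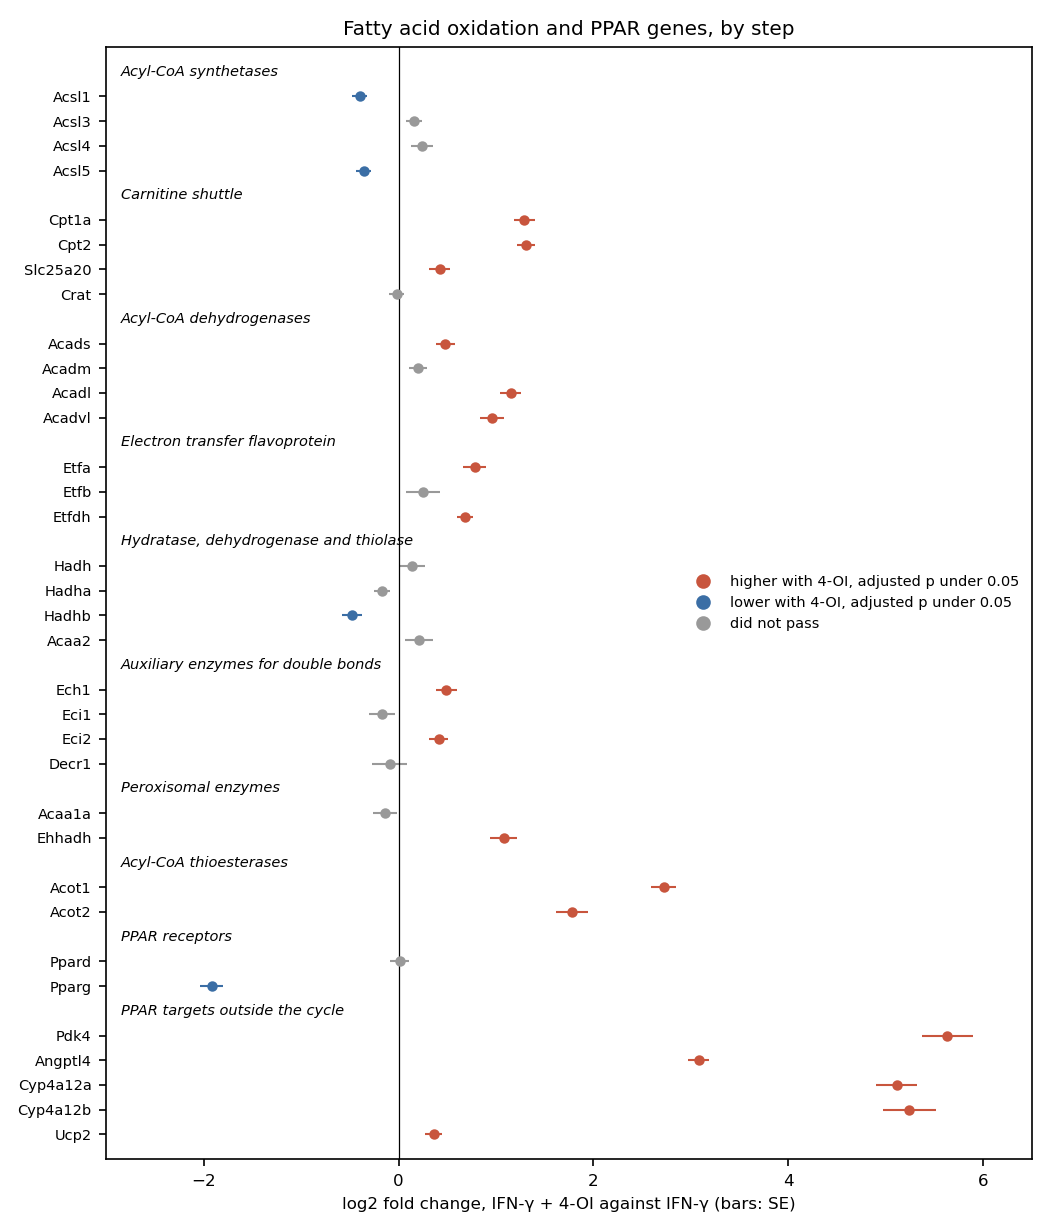
Log2 fold change of the 34 tested members (x axis, IFN-γ with 4-OI against IFN-γ, bars are SE of the edgeR fit, 3 libraries a group), grouped by step on the y axis. The carnitine shuttle, the dehydrogenases and the thioesterases hold members to the right of 0, Pdk4, Cyp4a12b and Cyp4a12a lie farthest right at 5.63, 5.24 and 5.11, and Pparg lies farthest left at -1.92.

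The acyl-CoA synthetases, which activate long-chain fatty acids, fell or did not pass, at 2 genes each, and none was higher by edgeR at an unadjusted p of 0.05 (0 of 4) or called higher by DESeq2 or limma-voom (0 of 4). Acsl1, a synthetase of the outer mitochondrial membrane and endoplasmic reticulum, went down from 189 ± 15.5 CPM (SD, n = 3) to 143 ± 2.44 (log2 fold change -0.40; edgeR adjusted p = 0.00513). Acsl5 fell from 109 ± 4.47 to 84.7 ± 2.98 CPM (log2 fold change -0.36; edgeR adjusted p = 0.00554). Both were lower in each 4-OI library than in any IFN-γ library. Acsl4, which prefers arachidonic acid, had 214, 167 and 170 CPM with IFN-γ and 215, 213 and 224 with 4-OI, and did not pass (log2 fold change 0.24; edgeR adjusted p = 0.106). The groups overlapped because IFN-γ replicate 1 was as high as the 4-OI libraries. Without that replicate Acsl4 passed as higher, with a log2 fold change of 0.36, and with total counts alone its log2 fold change was -0.02. Acsl3, found at lipid droplets, did not pass either (log2 fold change 0.16; edgeR adjusted p = 0.149), and with total counts alone it was at -0.10.

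Per length, in TPM (counts per exon length, scaled to an equal total in each library), Acsl4 made up 34.2% ± 2.84 of the summed TPM of these 4 genes with IFN-γ and 43.8% ± 0.718 with 4-OI (SD, n = 3). The shares of Acsl5 were 33.7% ± 3.21 and 28.2% ± 0.696, and those of Acsl1 27.8% ± 0.677 and 22.7% ± 0.720. Acsl3 held 4.39% ± 0.262 and 5.30% ± 0.207. A share is free of the scaling between libraries, and for each of these genes the 3 shares with 4-OI did not overlap those with IFN-γ.

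The carnitine shuttle carries the activated chains into mitochondria, and 3 of its 4 members rose. Cpt1a, the outer membrane carnitine palmitoyltransferase at which entry is controlled (chromosome 19, 3372328 to 3435735, plus strand in the deposited coordinates), stood at 67.9, 53.8 and 54.5 CPM with IFN-γ and at 150.3, 146 and 136 with 4-OI. Every 4-OI library was above every IFN-γ library, and IFN-γ replicate 1 was the highest of its group. The log2 fold change was 1.29 ± 0.11 (SE; edgeR adjusted p = 5.16e-05). Cpt2, the inner membrane enzyme that returns the chain to coenzyme A, stood at 15.6, 18.0 and 17.9 CPM with IFN-γ and at 42.4, 43.4 and 42.1 with 4-OI. The groups did not overlap, and the log2 fold change was 1.31 ± 0.09 (SE; edgeR adjusted p = 1.70e-05).

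Slc25a20, the carrier that exchanges carnitine esters across the inner membrane, rose less, from 41.9 ± 4.70 to 56.1 ± 5.00 CPM (SD, n = 3; edgeR adjusted p = 0.0158). That call was lost with total counts alone and without 4-OI replicate 3, where the log2 fold changes were 0.16 and 0.35 instead of 0.42. Crat, carnitine acetyltransferase, stood at 43.9 ± 2.32 and 43.2 ± 1.18 CPM and did not pass (edgeR adjusted p = 0.835), but with total counts alone it passed as lower at -0.28. Of the other carnitine palmitoyltransferase genes, Cpt1b had 8 and 7 counts over the libraries of each group, and Cpt1c, the neuronal form, had a mean of 1.55 TPM with IFN-γ and 0.900 with 4-OI against 27.2 and 50.7 TPM for Cpt1a.

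The acyl-CoA dehydrogenases open each round and are named for the chain length they take. Acadl (long chains) rose most: it stood at 123.5, 151.6 and 148 CPM with IFN-γ and at 292.5, 308 and 339.5 with 4-OI (log2 fold change 1.15 ± 0.11, SE; edgeR adjusted p = 8.21e-05). The groups were well apart, with IFN-γ replicate 1 lowest. Acadvl (very long chains) rose from 51.0 ± 7.82 to 99.2 ± 2.75 CPM (SD over 3 libraries; log2 fold change 0.96). Acads (short chains) rose from 31.5 ± 2.71 to 44.0 ± 3.93 CPM (log2 fold change 0.48), a call lost with total counts alone. Acadm (medium chains) did not pass: its CPM were 44.3, 51.6 and 50.5 against 54.7, 56.0 and 57.3, groups that did not overlap but lay close (log2 fold change 0.20 ± 0.09, SE; edgeR adjusted p = 0.101). Its direction turned with total counts alone, at -0.06. The difference between Acadl and Acadm was not tested.

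Of the electron transfer flavoprotein, which takes electrons from all 4 dehydrogenases, the α subunit and the oxidoreductase rose and the β subunit did not pass. Etfa, the α subunit, rose from 68.6 ± 7.20 to 118 ± 16.0 CPM (SD over 3 libraries; log2 fold change 0.78; edgeR adjusted p = 0.00129). Etfdh, which hands the electrons to ubiquinone, rose from 31.4 ± 1.08 to 50.2 ± 0.902 CPM (log2 fold change 0.68; edgeR adjusted p = 2.24e-04). Etfb stood at 39.3, 59.1 and 56.6 CPM with IFN-γ and at 55.7, 57.3 and 71.4 with 4-OI, with overlapping groups (log2 fold change 0.25; edgeR adjusted p = 0.258). It shares 6.53% of its exon bases with Cldnd2 on the same strand.

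The enzymes that complete the round included 1 that fell and 3 that did not pass. None of the 4 was higher by edgeR at an unadjusted p of 0.05 (0 genes) or by DESeq2 or limma-voom (0 genes). Hadhb, the β subunit of the mitochondrial trifunctional protein and the thiolase for long chains, had 41.9, 45.6 and 40.2 CPM with IFN-γ and 26.8, 31.5 and 33.2 with 4-OI. All 3 libraries with 4-OI were below the lowest with IFN-γ, and the log2 fold change was -0.48 ± 0.10 (SE; edgeR adjusted p = 0.00648). Hadha, the α subunit, had 97.8, 104.6 and 98.4 CPM with IFN-γ and 89.7, 94.6 and 82.9 with 4-OI. These groups did not overlap either, but the difference did not pass (log2 fold change -0.17 ± 0.08, SE; edgeR adjusted p = 0.128). With total counts alone, and without both libraries that stood apart, Hadha passed as lower, with log2 fold changes of -0.43 and -0.14. The fit without both libraries called more of all genes than the fit with all libraries. The starts of Hadha and Hadhb face away from each other on chromosome 5 with 272 bases between them, so the sequence shown for Hadhb is also the region before Hadha. Hadh, which acts on short and medium chains, and Acaa2, the mitochondrial thiolase, had log2 fold changes of 0.14 and 0.21 with overlapping groups, and both were negative with total counts alone (-0.12 and -0.05).

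The auxiliary enzymes let unsaturated chains enter the cycle, and 2 of 4 rose. Ech1, a dienoyl-CoA isomerase, rose from 91.9 ± 11.8 to 129 ± 8.08 CPM (SD over 3 libraries; log2 fold change 0.49; edgeR adjusted p = 0.00726), and Eci2, an enoyl-CoA isomerase, from 52.9 ± 4.92 to 70.2 ± 3.74 CPM (log2 fold change 0.41; edgeR adjusted p = 0.00936). Both calls were lost with total counts alone. Eci1, an isomerase of the same kind, stood at 13.2 ± 2.27 and 11.7 ± 0.327 CPM, and Decr1, the dienoyl-CoA reductase, at 15.5 ± 2.67 and 14.6 ± 3.26 CPM, with overlapping groups. With all 6 libraries neither passed (log2 fold changes -0.17 and -0.09). Leaving out IFN-γ replicate 1 and 4-OI replicate 3 put both past the threshold as lower (-0.32 and -0.41), and Eci1 also passed with total counts alone (-0.43) and without IFN-γ replicate 1 (-0.31). Leaving out both libraries raised the calls over all genes as well.

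The 19 members from the carnitine shuttle to the auxiliary enzymes were grouped as mitochondrial by function and not by measured location. Of these, 10 rose, 1 fell and 8 did not pass, with a median log2 fold change of 0.41. The share called was 57.9%, against 48.1% of all genes (22.7% higher and 25.4% lower). Their summed TMM-scaled CPM was 867 to 1014 with IFN-γ and 1372 to 1507 with 4-OI. In TPM, which is scaled to the total of each library, the sums lay closer, at 1038 to 1044 and 1131 to 1223. On the TPM scale the most abundant of them with IFN-γ were Ech1 (185 ± 3.86), Acadl (166 ± 0.908) and Etfb (130.1 ± 13.9), and with 4-OI Acadl (284 ± 9.82) was above Ech1 (201 ± 6.31) in each library. TPM divides by the length of all annotated exons together, so genes with long alternative exons such as Etfa and Hadhb read low against the others.

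Of the 2 peroxisomal members, Ehhadh rose and Acaa1a did not pass. Ehhadh, the bifunctional hydratase and dehydrogenase of peroxisomes, stood at 2.77, 2.61 and 2.21 CPM with IFN-γ and at 4.99, 5.83 and 5.23 with 4-OI. The groups did not overlap, though the level stayed low (log2 fold change 1.08 ± 0.14, SE; edgeR adjusted p = 5.20e-04). Acaa1a, the peroxisomal thiolase, stood at 79.9 ± 11.7 and 72.6 ± 3.30 CPM (SD, n = 3; edgeR adjusted p = 0.372), with IFN-γ replicate 1 as low as the 4-OI libraries. Without that replicate, and with total counts alone, it passed as lower with log2 fold changes of -0.26 and -0.39. Its close relative Acaa1b holds 34% of the stretches of 50 bases of the longest Acaa1a transcript, so reads can be shared between them.

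Both thioesterases, which release free fatty acids from coenzyme A, rose. Acot1, the cytosolic enzyme, stood at 1.66, 2.07 and 2.29 CPM with IFN-γ and at 13.7, 13.3 and 12.9 with 4-OI. The groups were far apart against their spread (log2 fold change 2.72 ± 0.13, SE; edgeR adjusted p = 3.87e-06). Acot2, the mitochondrial enzyme, stood at 2.41, 2.89 and 3.52 CPM with IFN-γ and at 8.90, 9.95 and 11.4 with 4-OI (log2 fold change 1.78 ± 0.16, SE; edgeR adjusted p = 7.79e-05). They are neighbours on the plus strand of chromosome 12, at 84056276 to 84064444 for Acot1 and 84034635 to 84040651 for Acot2 in the deposited coordinates. Their longest transcripts were 80.7% identical over 2046 aligned bases and Acot2 holds 23.7% of the 50-base stretches of Acot1, so part of either count can come from the other.

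**Figure D2:**
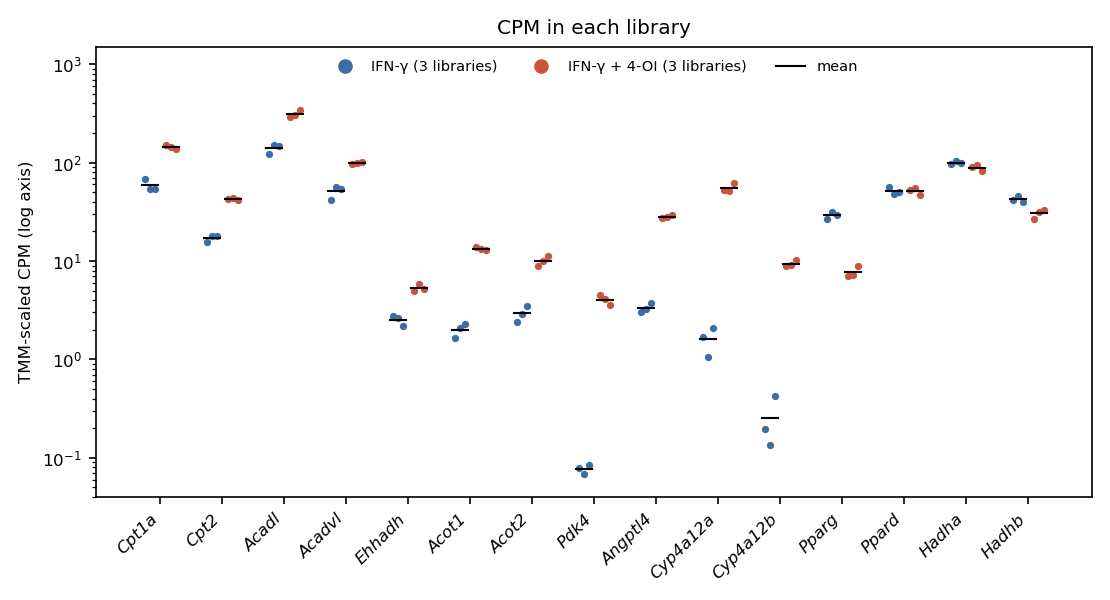
TMM-scaled CPM (y axis, log scale) of 15 members in each of the 6 libraries, with a line at each group's mean. Points for Cpt1a, Cpt2, Acadl, Acot1, Acot2, Pdk4, Angptl4 and both Cyp4a12 genes are higher with 4-OI without overlap, those for Pparg and Hadhb are lower, and those for Ppard overlap.

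Among targets of PPARs outside the cycle, all 5 members rose. Of the 5, Pdk4 and Cyp4a12b were bound to differ by the filter. Pdk4, a kinase that shuts pyruvate dehydrogenase and so spares glucose when fat is burned, had 2 counts in each IFN-γ library (0.0791, 0.0679 and 0.0849 CPM) and 4.50, 4.09 and 3.54 CPM with 4-OI. It was thus below the floor of 3 counts in each IFN-γ library and low but clear with 4-OI. Over the groups this is 6 against 282 counts, a ratio of 52.3 with an exact 95% interval of 23.7 to 143.8 that covers counting error only (edgeR adjusted p = 3.20e-06). Pdk4 entered the test through the 4-OI libraries, so neither the interval nor the p-value is support. Angptl4, a secreted inhibitor of lipoprotein lipase, stood at 3.01, 3.23 and 3.74 CPM with IFN-γ and at 27.4, 27.8 and 29.2 with 4-OI. Libraries within a group differed little, and the log2 fold change was 3.08 ± 0.11 (SE; edgeR adjusted p = 1.90e-06). Ucp2, a carrier of the inner mitochondrial membrane, was the most abundant member per length (436 ± 20.7 TPM with IFN-γ and 430.1 ± 22.2 with 4-OI). On the TMM scale it rose from 326 ± 22.6 to 419 ± 25.7 CPM (SD over 3 libraries; log2 fold change 0.36; edgeR adjusted p = 0.0126), and with total counts alone it did not pass, at 0.10.

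Cyp4a12a and Cyp4a12b encode cytochromes P450 that hydroxylate the far end of fatty acids. Cyp4a12a (chromosome 4, 115156243 to 115190012, plus strand in the deposited coordinates) stood at 1.70, 1.05 and 2.08 CPM with IFN-γ and at 52.3, 51.0 and 61.9 with 4-OI. All 4-OI libraries were many times above all IFN-γ libraries (log2 fold change 5.11 ± 0.21, SE; edgeR adjusted p = 2.31e-06). Cyp4a12b stood at 0.198, 0.136 and 0.425 CPM with IFN-γ and at 8.90, 9.08 and 10.3 with 4-OI, or 19 against 664 counts over the groups (ratio 38.9, exact 95% interval 24.7 to 65.0, edgeR adjusted p = 5.30e-06). Cyp4a12b reached the filter through the 4-OI libraries, so its interval and p-value are no support. The GENCODE M21 transcripts of the pair were 98.3% identical over 2394 aligned bases, and 48.9% of the 50-base stretches of Cyp4a12a also occur in Cyp4a12b. How much of the Cyp4a12b count came from Cyp4a12a was not tested. The coding stretch below, bases 644 to 763 of the longest open reading frame, is the one in which the pair differ most, with 8 of their 23 coding differences, shown in capitals.
Cyp4a12a: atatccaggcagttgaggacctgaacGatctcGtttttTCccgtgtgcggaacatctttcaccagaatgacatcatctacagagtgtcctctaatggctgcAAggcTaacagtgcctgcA
Cyp4a12b: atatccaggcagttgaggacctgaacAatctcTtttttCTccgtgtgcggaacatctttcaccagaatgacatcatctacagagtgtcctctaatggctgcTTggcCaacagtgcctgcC
Elsewhere the frames of 1527 bases are nearly the same, which is why counts of either gene are given as uncertain between them.

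Of the receptors, Pparg fell and none rose by edgeR, DESeq2 or limma-voom (0 higher at an unadjusted edgeR p of 0.05). Ppara, the receptor of liver and muscle, had 0 counts in 5 libraries and 1 count in 4-OI replicate 3, below the floor of 3 counts, so it was not detectable at this depth. Ppard, the widely expressed receptor, stood at 56.2, 47.7 and 49.8 CPM with IFN-γ and at 52.9, 54.8 and 47.2 with 4-OI. The groups overlapped (log2 fold change 0.01 ± 0.10, SE; edgeR adjusted p = 0.930). With total counts alone the log2 fold change was -0.24, near the shift of all genes on that scale. Without IFN-γ replicate 1 and 4-OI replicate 3, Ppard passed as higher at 0.15 (edgeR adjusted p = 0.0216), in a fit that called more of all genes too. Pparg stood at 26.9, 31.3 and 29.1 CPM with IFN-γ and at 7.05, 7.13 and 8.81 with 4-OI. Every library with 4-OI was far below every library without it, and the log2 fold change was -1.92 ± 0.12 (SE; edgeR adjusted p = 1.19e-05). Of the summed TPM of the 3 receptors, Pparg made up 33.9% ± 3.56 with IFN-γ and 11.9% ± 2.20 with 4-OI (SD, n = 3), and nearly all the rest was Ppard.

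**Figure D3:**
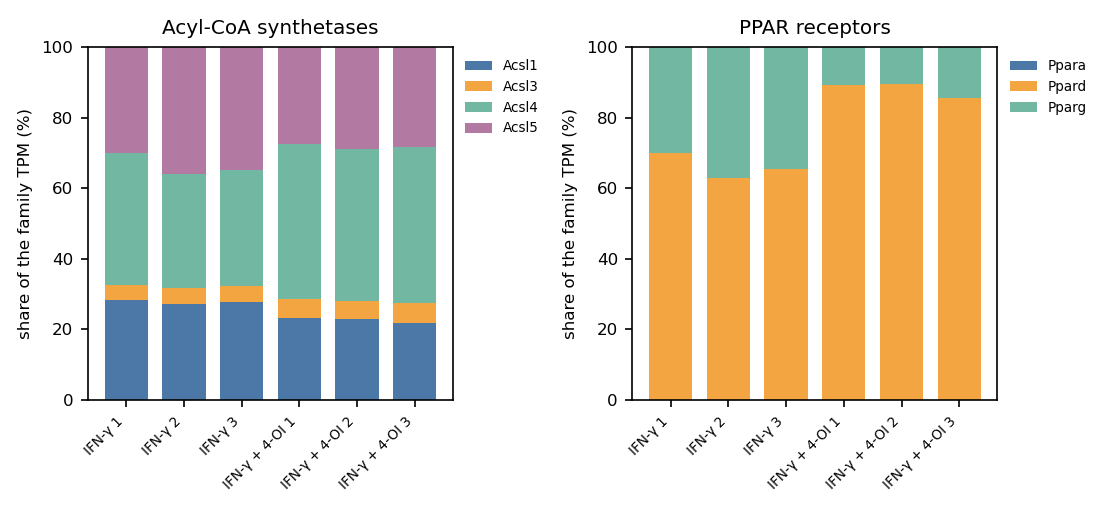
Share of each gene in the summed TPM of its family (y axis, percent) in each library (x axis, IFN-γ and IFN-γ with 4-OI, replicates 1 to 3), for the acyl-CoA synthetases on the left and the PPARs on the right. Acsl4 takes a larger share in each 4-OI library, and Pparg takes 10.5% to 14.4% with 4-OI against 30.1% to 37.2% without.

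Markers of cell types in which PPARs are prominent are given beside these values. Of 8 tested markers of alveolar macrophages, which depend on Pparg, 2 rose and 4 fell. Car4 fell from 299 to 395 CPM down to 52.7 to 70.8 and Siglecf from 12.0 to 15.4 CPM down to 1.48 to 2.06, while Cidec had at most 2 counts in a library. The summed level of that list was 4779 to 5955 CPM with IFN-γ and 4825 to 5872 with 4-OI, most of it from Chil3, which did not pass and also stands in the monocyte list. Of 7 monocyte markers 5 fell and 0 rose by edgeR, DESeq2 or limma-voom (0 at an unadjusted edgeR p of 0.05), with sums of 5823 to 7182 and 5276 to 6393 CPM. Markers of other bone marrow cells moved as well. Of 6 tested markers of mast cells and basophils all 6 fell, with summed CPM of 194 to 204 with IFN-γ and 64.7 to 73.1 with 4-OI, among them Gata2 (log2 fold change -1.79) and Ms4a2 (-2.86). Of 4 eosinophil markers 3 fell (sums of 138 to 186 and 51.8 to 60.5 CPM), 1 of them Siglecf, which the alveolar list also holds. Of 9 neutrophil markers 5 fell, Mpo farthest (-3.19), and 2 rose, Ly6g and S100a8 (sums of 1565 to 2302 and 1958 to 2691 CPM). The part of all these markers in the results was not tested. The adipocyte genes Adipoq and Lep and the hepatocyte genes Ttr, Cps1 and Serpina1a had 0 counts in all 6 libraries, and Plin1, Alb and Apoa1 had at most 2 in any. Retn, the only tested gene of the adipocyte list, fell from 1.61 ± 0.226 to 0.643 ± 0.0935 CPM (edgeR adjusted p = 0.00222).

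The other genes of these pathways were listed by function, also with earlier results of these data known. Of these, 70 of 93 were tested, and 16 rose and 19 fell, shares near those of all genes tested (22.7% higher and 25.4% lower). Their median log2 fold change was -0.09, against -0.01 for all genes. With total counts alone 11 rose and 30 fell. Among 20 other mitochondrial genes 3 rose (Acad10, Acot13 and Acot7) and 7 fell. Oxct1 and Acat1, which let cells burn ketone bodies, fell from 61.3 ± 1.82 to 22.8 ± 2.56 CPM and from 54.2 ± 5.72 to 25.1 ± 0.886 CPM (SD, n = 3; edgeR adjusted p = 2.13e-05 and 7.01e-05). Slc25a29, a mitochondrial carrier, fell from 1.51 to 0.452 CPM. Among 21 other peroxisomal genes 8 rose and 6 fell. Slc27a2, a very-long-chain acyl-CoA synthetase, fell from 1.17 to 0.180 CPM. Acaa1b, a thiolase, and Acot4, a thioesterase, rose from 0.335 to 1.60 CPM and from 0.306 to 1.09 CPM, both low and both with close relatives among the members. Slc25a29, Slc27a2, Acaa1b and Acot4 reached the filter through the group in which they were high and so were bound to differ.

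Of 17 tested partners and coregulators of PPARs 3 fell and 0 rose by edgeR. At an unadjusted p of 0.05 edgeR had 2 higher, and DESeq2 and limma-voom each called 1 higher, Pprc1, a relative of the PGC-1 coactivators (12.2 ± 2.03 and 15.5 ± 0.230 CPM; edgeR adjusted p = 0.0519). Ppargc1b, the coactivator PGC-1β, fell from 2.53 ± 0.835 to 0.990 ± 0.178 CPM (SD, n = 3; edgeR adjusted p = 0.00523). Ppargc1a, the coactivator PGC-1α, and Ncoa3, another coactivator, were near the threshold (edgeR adjusted p = 0.0488 and 0.0411). Ppargc1a, which was at the filter's level in 3 IFN-γ libraries and 2 with 4-OI, lost the call under RLE factors and without any 1 of 4 libraries (IFN-γ replicate 2 or 3, 4-OI replicate 2 or 3), and Ncoa3 without any 1 of the 3 libraries with 4-OI. Ncoa3 stood at 89.8 CPM in IFN-γ replicate 1 and at 57.2 and 58.6 in the other two, and without that library its log2 fold change was -0.31 instead of -0.55. The receptor partners Rxra and Rxrb had log2 fold changes of 0.07 and 0.22 and did not pass.

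Of 28 other PPAR targets only 12 reached the filter, and 5 of these rose and 3 fell, with a median log2 fold change of 0.42. Cd36, which takes up fatty acids, stood at 51.0 ± 6.26 and 701 ± 25.9 CPM, and Plin2 and Hilpda, proteins of lipid droplets, were 8.72-fold and 5.14-fold higher (edgeR adjusted p = 1.70e-06, 2.31e-06 and 2.31e-05). Pnpla2, the lipase that frees fatty acids from droplets, was 3.30-fold higher and G0s2, its inhibitor, 1.88-fold. Fabp5, a fatty acid binding protein, fell, and so did Fabp3, another, which reached the filter through the IFN-γ libraries alone and was bound to differ. Fabp4 and Lpl did not pass. Targets known from liver were at or near 0: Fgf21, Cyp4a10, Cyp4a31 and Cyp4a32 had 0 counts in all 6 libraries, and Cyp4a14 at most 1 in any.

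**Figure D4:**
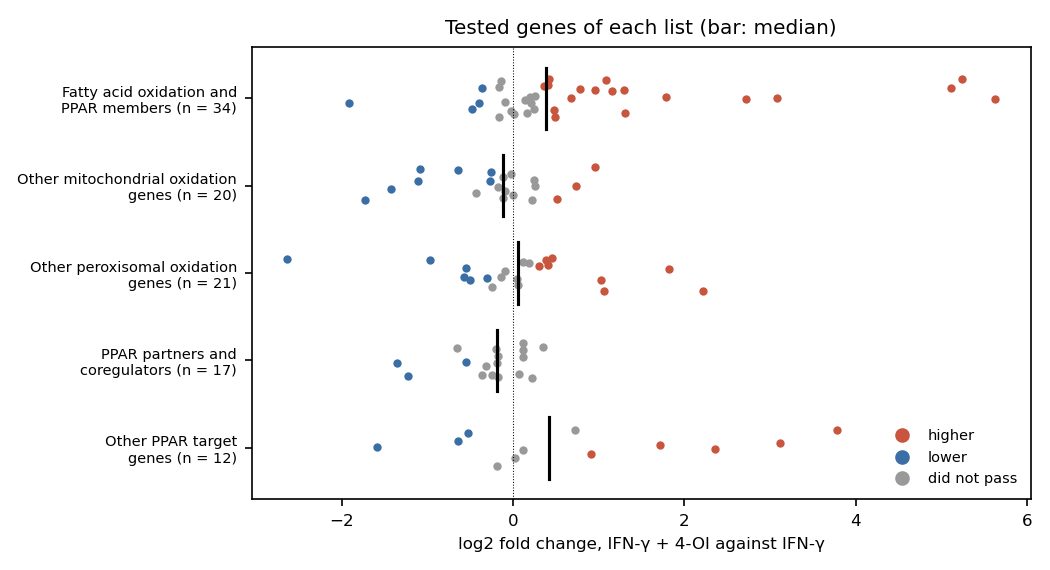
Log2 fold change (x axis, IFN-γ with 4-OI against IFN-γ) of the tested genes of the members and of 4 lists of related genes (y axis, with n tested); bars mark medians and vertical spread is for display. The medians are 0.39 for the members, -0.12 and 0.06 for other mitochondrial and peroxisomal genes, -0.19 for partners and coregulators and 0.42 for other PPAR targets.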

How the data were processed

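Libraries were made from mRNA with a stranded kit, per the labels' protocols. The authors deposited 1 table per sample with whole-number counts, TPM and FPKM per gene, per the file headers. HISAT2 and the build mm10 appear in the submitters' processing notes. How genes were counted, with or without strand, and from which annotation is not given in the sources used here. Deposited TPM and FPKM equalled values recomputed from the counts and lengths within a relative tolerance of 1e-06; TPM served to compare levels between genes and FPKM was not used. Of 35270 genes matched by symbol to RefSeq GRCm38, 827 shared a start or end with it, so positions of genes are those of the deposited tables and may belong to another assembly than mm10; promoter windows are RefSeq's on GRCm38.p6.

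Counts were tested with edgeR 4.0.16 in R 4.3.3: filterByExpr with a minimum count of 10, TMM factors, robust quasi-likelihood test, Benjamini-Hochberg adjustment over all genes, threshold 0.05. Values are means ± SD over 3 libraries. No replicates agreed within sampling noise (lowest chi-square per gene 4.29). The fit was tested on simulated data in which few genes were changed, upward or downward at random. Far more genes were called here, so that test cannot speak to the choice of scaling. Alternatives were RLE, upper quartile and total-count scaling, no filter, a filter of 1 CPM in 3 libraries, DESeq2 1.42.0, limma-voom (limma 3.58.1), the replicate number as a block, leaving out libraries, and a threshold of 0.01. The members and lists were chosen with earlier results of these data known. Members past 0.05 with a change of at least 2-fold, the receptors, Cpt1a and Pdk4 are given in full, and of each related list the 3 largest called changes with a group mean of 1 CPM or more; Acadvl, Hadha, Hadhb, Acadm, Acsl4, Etfb, Pnpla2, G0s2, Pprc1 and other related genes named to complete a count were chosen after their values were seen.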

Additional observations from a re-analysis of the deposited data

How the results depend on the processing

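Of the 22 called members, 17 kept direction and call at 0.05 under all 15 other fits, and 20 passed 0.01. The others lost the call with total counts alone (Slc25a20, Acads, Ech1, Eci2 and Ucp2), and Slc25a20 also without 4-OI replicate 3. Members called lower numbered 4, and 8 both with total counts alone and without IFN-γ replicate 1 and 4-OI replicate 3. Over all genes, total counts alone gave 1719 higher and 5452 lower, and a threshold of 0.01 gave 2079 higher. The fit without IFN-γ replicate 1 and 4-OI replicate 3 gave 4601 higher and 4695 lower over all genes. Of the related genes, 30 were lower with total counts alone, 23 passed 0.01 (12 of them lower), and 12 to 24 were lower without single libraries, 12 being the value without 4-OI replicate 2. Signs turned for members that did not pass: with total counts alone the log2 fold changes were -0.10 for Acsl3, -0.02 for Acsl4, -0.06 for Acadm, -0.01 for Etfb, -0.12 for Hadh, -0.05 for Acaa2 and -0.24 for Ppard. Without IFN-γ replicate 1 and 4-OI replicate 3 they were 0.04 for Crat, -0.03 for Etfb, -0.02 for Hadh and -0.00 for Acaa2. Without single libraries they ran from -0.05 to 0.01 for Crat, -0.27 to 0.04 for Decr1 and -0.03 to 0.08 for Ppard. The cause was not tested.

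Both groups use replicate numbers 1 to 3, and no label ties equal numbers together. Deviations of same-numbered libraries correlated at 0.26, -0.10 and 0.19, and 3 of 6 libraries correlated best with their own number. With 3 libraries a group these values cannot show whether equal numbers were pairs. The numbers were not taken as pairs because no label states it. With the replicate block 23 members were called, Acsl4 being the one added, and 7513 genes in all. Depth limits Ppara, Pdk4 and Cyp4a12b with IFN-γ.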
